A study of Mus musculus with 2 samples.

Results

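Lymphatic endothelial cells line the vessels that drain fluid and leukocytes from tissue. They are described here in 2 single-cell RNA libraries of mouse vein grafts, that is, vein segments placed in the arterial circulation. One library came from conventional grafts and the other from No-Touch grafts, for which the vein is moved together with its surrounding tissue. Both groups were C57BL6/J mice of 10 to 12 weeks. No allele, drug or other agent is named for either group. Tissue was dissociated first in papain, then in collagenase I with dispase II, and live nucleated CD45-negative cells, which leaves out most leukocytes, were sorted for droplet 3′ RNA sequencing with unique molecular identifiers (UMIs). The protocol also names sorts for CD45-positive and tdTomato-positive cells, and the number of animals, their sex and the time after grafting are not given in the sources used here.

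Cells were kept with at least 500 genes, 1000 UMIs and at most 10% mitochondrial UMIs. A barcode counted as a lymphatic endothelial cell when it held Prox1 and at least 3 of the 5 markers Prox1, Mmrn1, Flt4, Reln and Lyve1, each with a UMI. It also needed at least 2 UMIs of Pecam1 and Cdh5 and under 1% of UMIs from Col1a1, Col1a2 and Col3a1. The rule found 329 cells among 10458 in the conventional library and 298 among 11525 in the No-Touch library, 627 of 21983 in all. Their shares were 3.15% (95% Clopper-Pearson interval 2.82 to 3.50) and 2.59% (2.30 to 2.89), so the intervals overlapped. With every cell thinned to 5000 UMIs before the rule was applied, the shares were 2.75% and 2.16%. Each group is 1 library, so every difference below is between these libraries and has no replicate check, and intervals cover counting error only.

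Lymphatic endothelium arises when the transcription factor Prox1 is switched on in venous endothelium, and it is then kept by Prox1 together with signalling through the receptor VEGFR3, the product of Flt4. Initial lymphatics, or capillaries, take up fluid through loose junctions, carry the hyaluronan receptor LYVE1 and secrete the chemokine CCL21, which guides dendritic cells and lymphocytes that carry CCR7. Collecting lymphatics have tight junctions and valves, in whose formation the transcription factors FOXC2 and GATA2 act. Vessel walls hold lymphatics mainly in the outer coat and the fat around it, tissue that a No-Touch graft keeps.

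The libraries stand apart in ways that the graft type does not define. In the conventional library 62 members held Xist, the RNA of the silenced X chromosome of females, without Y-linked UMIs, and 199 held Y-linked UMIs without Xist. In the No-Touch library 0 members were of the first kind and 264 of the second. Median depth was 11515 UMIs for conventional and 12463.5 UMIs for No-Touch members, closer than the medians of all cells (16778.5 and 28472). A group of 63 conventional and 28 No-Touch members looked mixed with another cell, since they held Flt1, at least 0.2% Dcn, or both Xist and Y-linked UMIs. The libraries shared 22 cell barcodes, and 0 of these was a member in both. Results are therefore also given against the conventional members with Y-linked UMIs only, against those with Xist only, and without the mixed barcodes.

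All 5 markers of the rule were present in 296 of 329 conventional and 269 of 298 No-Touch members. The rule required at least 3 of them, Prox1 included, so these counts describe the choice and do not test the label. Just inside the limit, the 12 conventional members with exactly 3 markers had summed levels of 180.3 counts per 1000000 UMIs (CPM) of Prox1, 195 CPM of Ccl21a and 2021 CPM of Selp, a gene of venular blood endothelium. Just outside it, the 47 conventional barcodes with 2 markers were at 105, 13.5 and 3433 CPM of the same genes. The edge of the rule therefore held barcodes with more of a blood endothelial gene than the centre, where the members with 4 or 5 markers had 157 CPM of Selp. The collagen limit left out 21 conventional and 53 No-Touch barcodes, which had 6764 and 8291 CPM of the fibroblast gene Dcn.

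Markers of other cell types were low in the members but not absent. The 5 blood endothelial markers summed to 577 and 433 CPM, 22.5% and 21.0% of their level in blood endothelial cells. The 6 fibroblast markers summed to 2871 and 4616 CPM, and the 5 mural markers to 367 and 440.2 CPM. The fibroblast sum was thus higher in the No-Touch members, and its part in the results below was not tested. Leukocyte RNA was low but present in both libraries. The 5 neutrophil markers summed to 19.0 and 7.88 CPM and the 5 mononuclear phagocyte markers to 14.4 and 14.6 CPM. Ptprc, which encodes CD45, was at 3.71 and 4.40 CPM, 4 of 4 B cell markers were at 0 in the conventional members, and the T or NK markers summed to 0.873 and 14.4 CPM. Schwann cell markers summed to 11.3 CPM in the conventional and 167 CPM in the No-Touch members.

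Identity was described by setting the members beside blood endothelial cells of the same library, taken as endothelial barcodes without Prox1 and with at least 2 of Flt1, Emcn, Plvap, Nos3 and Podxl (726 and 381 cells). Levels are UMIs summed over the cells of a class and scaled to CPM, given here and below for the conventional and then the No-Touch library, and folds are ratios of CPM + 1. Lymphatic cells made up 31.2% (28.4 to 34.1) and 43.9% (40.1 to 47.7) of the cells of both kinds. Blood endothelial cells made up 6.94% and 3.31% of all cells. Since both kinds were chosen by their genes, the values that follow describe that choice and carry no test. Of 3472 genes of at least 50 CPM, 234 (6.74%) were at least 2-fold higher in lymphatic cells in both libraries and 255 (7.34%) at least 2-fold lower.

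Among genes the rule did not use, the secreted guidance factor Ccl21a stood farthest above blood endothelium. Ccl21a was at 11807 CPM (11708 to 11907) and 21498 CPM (21359.5 to 21636) in lymphatic cells and at 25.2 and 24.3 CPM in blood endothelial cells. The genome carries near-identical Ccl21 copies and the symbol Ccl21a is given to 2 features of the tables, so the copies cannot be told apart by these counts. At a thinned depth of 5000 UMIs a Ccl21a UMI was found in 91.4% and 96.1% of lymphatic cells (94.2% and 98.7% unthinned). It was also found in 12.3% and 12.2% of mural cells and 11.2% and 9.88% of fibroblasts. Blood endothelial cells stood at 12.0% and 13.2%, a like low level in these classes, which is read as background. The highest summed level outside lymphatic cells was 135 CPM, in conventional epithelial cells.

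Genes of several roles followed. Fgl2, which encodes a secreted fibrinogen-like protein of immune regulation, was at 2069 and 2302 CPM, 47.0-fold and 36.8-fold above blood endothelial cells. Nts, which encodes the peptide neurotensin, was at 1567 and 1999 CPM (46.9-fold and 79.2-fold). These were levels of secreted products. Maf, a transcription factor, was at 523 and 611 CPM (35.5-fold and 48.3-fold), and Dtx1, a ubiquitin ligase tied to Notch signalling, was at 273 and 182 CPM (163-fold and 116-fold). Ackr2, a receptor that binds and degrades inflammatory chemokines, was at 94.9 and 139.9 CPM (57.0-fold and 89.3-fold). The axon guidance ligands Sema3a and Sema3d, the first of which acts in lymphatic valve formation, were 36.0-fold and 42.8-fold, and 73.9-fold and 35.2-fold, above blood endothelial cells. The other genes of the leading 15 were Pard6g, a cell polarity gene (93.9-fold and 173-fold), the amino acid transporter gene Slc38a4, Slc45a3, Sh3gl3, Ttyh1, the sodium channel gene Scn3a and Emid1.

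On the other side stood genes of venules and of clotting. Selp, the P-selectin that catches rolling leukocytes, was at 266 and 111 CPM in lymphatic and 3952 and 4294 CPM in blood endothelial cells. Vwf, the von Willebrand factor that binds platelets, was at 17.5 and 4.87 against 326 and 280.3 CPM, and Ackr1, the chemokine transporter of venules, at 16.6 and 6.72 against 319 and 318 CPM. Entpd1, an enzyme that breaks down extracellular ATP, was 18.4-fold and 54.3-fold lower in lymphatic cells. C1qtnf9, Rasgef1a, Tmem252, the junction gene Jam2, the cytokine receptor gene Csf2rb2 and Plekha7 completed the 10 genes farthest below. Selp and Vwf were lower in the No-Touch than in the conventional lymphatic cells. The share of mixed members was 19.1% and 9.40%, but these shares are not measured alike. Their criterion of Xist with Y-linked UMIs was met by 16 and 0 members, and the No-Touch library held 0 members with Xist only. The part of mixing in the Selp and Vwf differences was not tested. Without the mixed barcodes Selp was at 58.7 and 19.98 CPM and Vwf at 3.11 and 1.71 CPM.

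**Figure D1:**
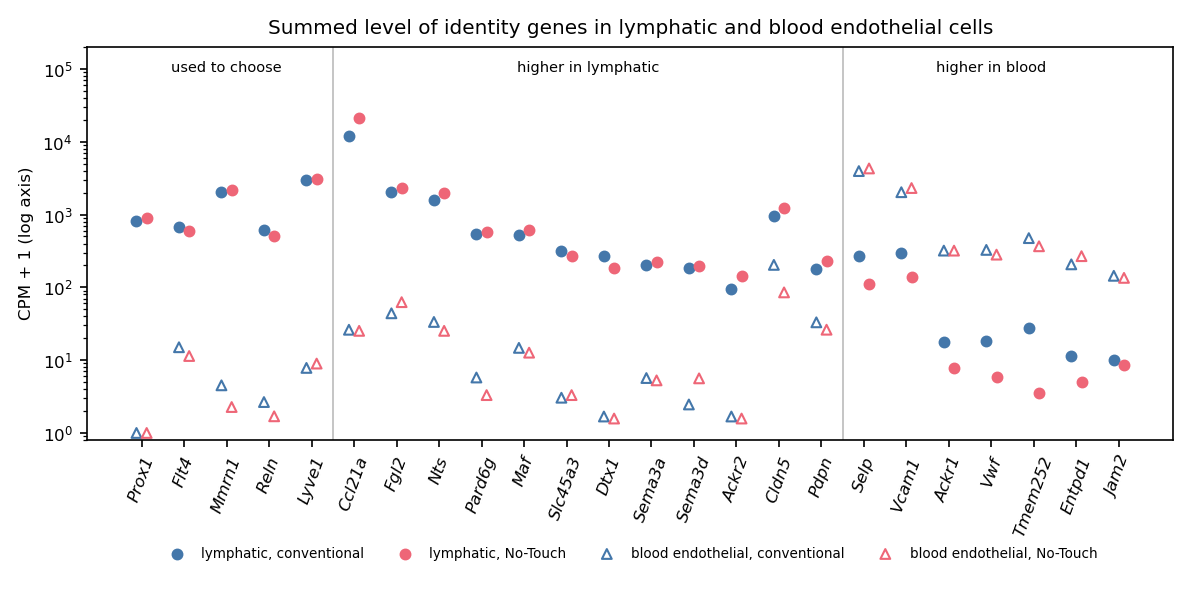
Summed level (CPM + 1, log axis) of identity genes in lymphatic endothelial cells (filled points) and blood endothelial cells (open triangles) of the conventional and No-Touch libraries, 1 point per library and cell class. The first 5 genes chose the cells; Ccl21a is at 11807 and 21498 CPM in lymphatic and 25.2 and 24.3 CPM in blood endothelial cells, and Selp shows the opposite order.

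Among 15 lymphatic transcription factors, 5 were at least 2-fold above blood endothelial cells in both libraries and 0 below. The shares were 5.15% and 5.71% among 8617 genes of at least 10 CPM. Prox1 was among the 5, and its place there was fixed by the choice of both kinds of cell. Prox1, which the rule used, was at 822 CPM (796 to 849) and 901 CPM (873 to 929.8), and over single cells its median was 810.2 and 837 CPM. Tbx1, a T-box factor of lymphatic development, was at 187 and 169 CPM, Nfatc1, a factor of valve formation, at 455 and 339 CPM, and Nr2f2, the venous factor that acts with Prox1, at 318 and 391 CPM. Each of these levels was less than 1.5-fold apart between the libraries. Sox18, which switches on Prox1 in the embryo, was at 77.9 CPM (70.01 to 86.4) and 203 CPM (189.7 to 217), and blood endothelial cells showed 66.6 and 246 CPM. Foxp2 was at 44.7 and 86.0 CPM. Sox18 and Foxp2 were the 2 of 15 factors at least 1.5-fold higher in the No-Touch library, with 0 lower, beside 9.54% higher and 6.85% lower among all 8878 genes of at least 10 CPM.

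Most growth factor receptors were less than 1.5-fold apart between the libraries. Of 15 measured, 0 were at least 1.5-fold higher and 2 lower in the No-Touch library, beside 9.54% and 6.85% of all genes. Their median log2 ratio was -0.23, beside 0.01 over all genes. Leaving out the mixed barcodes gave 0 of 14 higher and 0 lower (10.4% and 7.39% of all genes) and a median of -0.08. The lower genes numbered 2 of 15 against the conventional cells with Y-linked UMIs only (6.73% of all genes). They numbered 4 of 15 against those with Xist only (13.0%). Flt4, the receptor of the lymphatic growth factors VEGF-C and VEGF-D, was at 667 and 589 CPM, Kdr, which encodes VEGFR2, at 403 and 344 CPM, and the co-receptor gene Nrp2 at 439 and 360.3 CPM. Calcrl and Ramp2, which together form the adrenomedullin receptor, were at 222 and 225 and at 632 and 504 CPM. Eng, a co-receptor for BMP9, was at 342 and 215 CPM and was 1.59-fold lower in the No-Touch library.

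The ligands of those receptors lay mostly outside the lymphatic cells. Vegfc was at 4.80 and 3.01 CPM in lymphatic cells, at 22.1 and 24.6 CPM in blood endothelial cells and at 24.7 and 23.3 CPM in fibroblasts. Vegfd was at 12.4 and 18.5 CPM in lymphatic cells and at 81.0 and 78.3 CPM in fibroblasts. Ccbe1, which VEGF-C needs for its processing, was at 57.6 and 49.7 CPM in fibroblasts and at 5.45 and 7.88 CPM in lymphatic cells. Fibroblasts thus held more of each of these genes than lymphatic cells in both libraries. The exceptions were Angpt2, a ligand of the receptor TIE2, at 252 and 115 CPM, and Pgf, a ligand of VEGFR1, at 427 and 182 CPM in lymphatic cells. Angpt2 was 2.19-fold and Pgf 2.33-fold lower in the No-Touch library.

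Most junction genes were less than 1.5-fold apart between the libraries. Of 19 junction and valve genes, 1 was at least 1.5-fold higher and 2 lower in the No-Touch library (median log2 ratio 0.01). The shares of all genes were 9.54% and 6.85%. Leaving out the mixed barcodes gave 1 of 19 higher and 0 lower, beside 10.4% and 7.39% of all genes. Cldn5, the main claudin of endothelial tight junctions, was at 965 and 1227 CPM in lymphatic and 202 and 84.2 CPM in blood endothelial cells. The gap junction genes Gja1 and Gja4 were at 228 and 338 and at 48.9 and 48.7 CPM. Itga9, an integrin of lymphatic valves, was at 114 and 93.8 CPM, Emilin1, which encodes an extracellular protein that integrin can bind, at 92.1 and 79.7 CPM, and Celsr1, a polarity gene of valve cells, at 49.1 and 41.5 CPM.

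Genes of initial lymphatics are told apart below from genes of collectors and valves. Of 11 capillary genes, 8 were at least 2-fold above blood endothelial cells in both libraries, with median log2 ratios of 3.39 and 3.65. Lyve1 and Reln among them were used by the rule, so this count and these medians partly describe the choice. Of 13 collector and valve genes, 5 were above and 2 below (medians 0.51 and -0.08). Among all 8617 genes of at least 10 CPM, 5.15% were above and 5.71% below. By 1.5-fold in the No-Touch library, 1 of 13 collector and valve genes was higher and 1 lower. Of 11 capillary genes 1 was higher, Ccl21a, and 0 lower, beside 9.54% and 6.85% of all genes. Pdpn, the podoplanin that binds the platelet receptor CLEC-2, was at 178 and 227 CPM, Piezo2, a mechanosensitive channel, at 184 and 124 CPM, and Foxc2 at 56.5 and 62.8 CPM.

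Between the libraries 3663 genes of at least 50 CPM in either could be compared in lymphatic cells. Of these, 89 (2.43%) were at least 2-fold higher and 66 (1.8%) at least 2-fold lower in the No-Touch library. The counts were 181 and 85 without the collagen limit, 81 and 92 with at least 2 markers, 101 and 58 against the conventional cells with Y-linked UMIs only, and 130 and 145 against those with Xist only. Read by lists, 25 of which were compared, most members of the antigen presentation and interferon lists were higher and most of the NF-kappaB list lower in the No-Touch cells. No other list of at least 10 measured genes had a median log2 ratio beyond 0.44 in either direction.

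**Figure D2:**
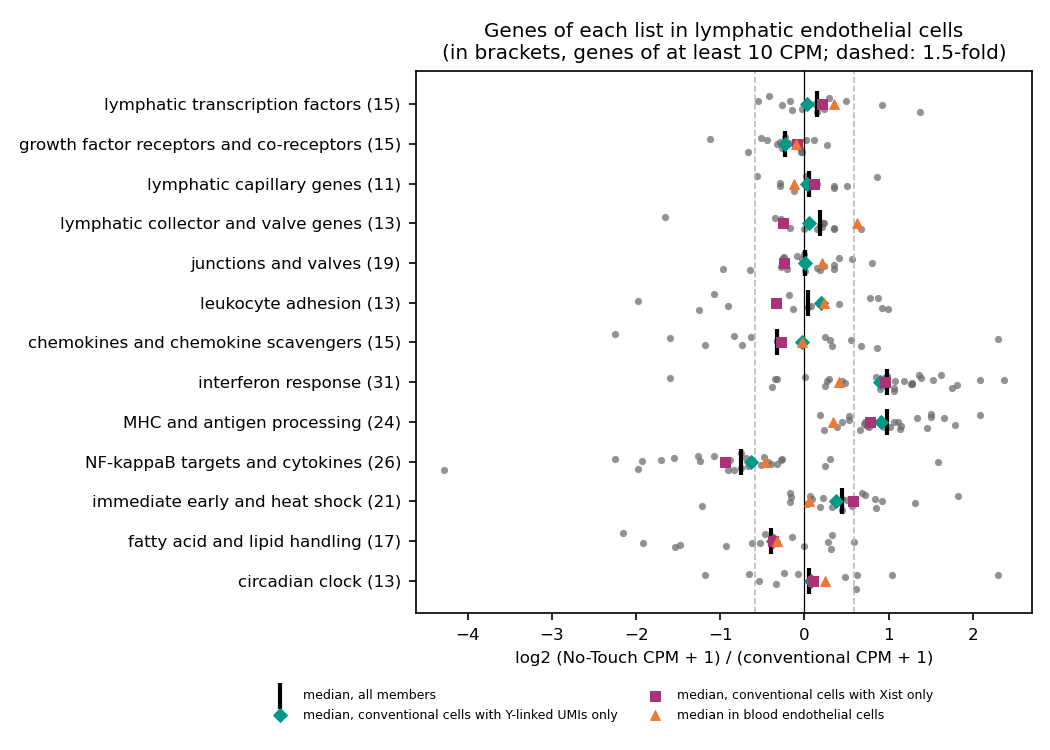
Log2 ratio of No-Touch over conventional CPM + 1 in lymphatic endothelial cells for the genes of selected lists (small points; number of measured genes in brackets), with the median over all members, against the conventional cells with Y-linked UMIs only or Xist only, and in blood endothelial cells. The interferon and antigen presentation medians are 0.98 and 0.98 and the NF-kappaB median -0.75; the dashed lines mark a 1.5-fold difference.

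The antigen presentation list holds the major histocompatibility complex (MHC) genes and the machinery that cuts and loads peptides. Of 24 measured genes, 18 were at least 1.5-fold higher and 0 lower in the No-Touch library, beside 9.54% and 6.85% of all genes, with a median log2 ratio of 0.98. The interferon response list had 21 of 31 genes higher and 1 lower, with the same median. Promoters of 4 members that differed in the main direction of their list are shown first. Sequences are from RefSeq on GRCm38.p6, from 250 bases before to 50 after the transcription start, 5′ to 3′ on the gene's strand. Capitals mark matches to the core of the interferon-stimulated response element (ISRE), GAAA and GAAA with 2 bases between them on either strand, in Irgm1 (chr11:48871371-48871670, minus strand) and B2m (chr2:122147437-122147736, plus strand), and to a kappaB motif, GGG and TTTCC with 2 bases between them on either strand, in Nfkbia (chr12:55492598-55492897, minus strand) and Cxcl2 (chr5:90903649-90903948, plus strand).
Irgm1: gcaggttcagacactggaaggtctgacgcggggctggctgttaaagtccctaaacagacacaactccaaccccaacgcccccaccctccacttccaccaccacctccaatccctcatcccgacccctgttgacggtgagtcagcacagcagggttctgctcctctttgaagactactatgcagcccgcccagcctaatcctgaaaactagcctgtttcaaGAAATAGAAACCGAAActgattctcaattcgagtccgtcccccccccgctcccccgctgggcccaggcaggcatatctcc
B2m: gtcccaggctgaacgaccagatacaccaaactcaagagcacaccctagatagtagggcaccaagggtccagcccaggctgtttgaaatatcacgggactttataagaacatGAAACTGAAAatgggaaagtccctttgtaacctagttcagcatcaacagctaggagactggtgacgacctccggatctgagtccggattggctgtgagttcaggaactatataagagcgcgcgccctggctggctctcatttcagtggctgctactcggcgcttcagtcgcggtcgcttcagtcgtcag
Nfkbia: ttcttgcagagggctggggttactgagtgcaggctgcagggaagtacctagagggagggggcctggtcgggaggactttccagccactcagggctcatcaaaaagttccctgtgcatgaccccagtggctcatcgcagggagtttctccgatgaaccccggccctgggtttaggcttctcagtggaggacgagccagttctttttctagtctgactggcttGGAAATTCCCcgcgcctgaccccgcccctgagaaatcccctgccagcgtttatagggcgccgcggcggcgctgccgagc
Cxcl2: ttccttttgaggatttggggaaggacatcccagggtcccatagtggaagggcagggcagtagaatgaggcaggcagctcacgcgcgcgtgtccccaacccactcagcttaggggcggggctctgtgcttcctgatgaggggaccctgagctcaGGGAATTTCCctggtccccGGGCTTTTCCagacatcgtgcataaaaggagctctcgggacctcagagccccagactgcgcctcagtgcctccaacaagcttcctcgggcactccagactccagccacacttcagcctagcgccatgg

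In Irgm1 the 2 matches overlap, the first 30 bases before the start, and in B2m the match begins 139 bases before it. The ISRE core lay in 14 of 23 interferon list genes with a promoter entry (60.9%) and 5 of 19 antigen presentation genes (26.3%), beside 3.99% of all 27025 genes in the table. The kappaB letters lay in 7 of 18 NF-kappaB list genes (38.9%) and 0 of 23 interferon genes, beside 1.89% of all genes. Since the lists gather genes of the interferon response and targets of NF-kappaB, these shares describe the lists. They carry no test of the differences between the libraries. The B2m promoter also holds a kappaB match, left in lower case. The motifs share letters, since the kappaB motif read on its other strand (GGAAA, 2 bases, CCC) holds a GAAA, and 0 NF-kappaB list promoters held the ISRE core. The 4 promoters shown were picked for their direction, and not all genes with a match differed that way. Il6 holds a kappaB match and was higher in the No-Touch library. Rsad2 and Cxcl10 with the ISRE core, and Tnfaip3 and Cxcl1 with a kappaB match, were less than 1.5-fold apart. A match is a run of letters in this window and does not show that a factor binds there.

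Of the class I genes, which present peptides from inside the cell, B2m, the invariant chain, was at 1438 CPM (1403 to 1473) and 4081 CPM (4021 to 4142), a ratio of 2.84. Over single cells the median B2m level was 1252 and 4097 CPM, and the lower quartile of the No-Touch cells (2775) lay above the upper decile of the conventional ones (2399.5). Most members were thus higher, with overlapping tails. The heavy chain genes H2-K1 and H2-D1 were at 1316 and 2078 and at 1412 and 2714 CPM, and the non-classical H2-T23, whose product presents leader peptides to natural killer cells, at 176 and 611 CPM, a ratio of 3.47. Because class I heavy chain genes are near copies, their reads may have been shared out among them in the authors' counting. Of the loading machinery, Tap2, a subunit of the peptide transporter, was at 52.1 and 150.4 CPM, and the immunoproteasome gene Psmb9 at 69.8 and 178 CPM. Tapbp, 156 and 178 CPM, and Nlrc5, an activator of class I genes, 24.6 and 29.2 CPM, were less than 1.5-fold apart.

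Class II genes, which present peptides from outside the cell and which lymphatic endothelium holds at low levels, were higher as well in the No-Touch cells. H2-Ab1 was at 69.2 and 191 CPM, H2-Eb1 at 50.8 and 219.9 CPM and H2-Aa at 45.4 and 145 CPM. Cd74, the invariant chain of class II, was at 249 and 551 CPM. Without the mixed barcodes Cd74 was at 79.2 and 572 CPM, a wider difference. Thinned to the same depth, a Cd74 UMI was found in 21.1% of conventional and 47.2% of No-Touch lymphatic cells (33.7% and 56.4% unthinned), and in 11.7% and 7.80% of mural cells, whose median depths were 10909 and 16167 UMIs. Fibroblasts, at median depths of 20204 and 31994 UMIs, showed 18.3% and 9.99%. Read as background, the mural and fibroblast shares of Cd74 were lower for No-Touch than for conventional cells. Summed levels did not all go that way. Cd74 was at 51.5 and 95.7 CPM in mural cells, 56.2 and 103 CPM in Schwann cells, and 117 and 43.8 CPM in fibroblasts. The part of background in the class II differences was not tested. The conventional lymphatic share of cells with a Cd74 UMI lay close to that of fibroblasts. Blood endothelial cells were at 52.2% and 49.2%.

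Of the interferon-inducible GTPases, which attack vacuoles that hold microbes, Irgm1 was at 22.9 CPM (18.7 to 27.7) and 123 CPM (113 to 134), with a ratio of 5.18, the highest of the genes named as higher in No-Touch cells. Iigp1 was at 267 and 944 CPM, Gbp3 at 47.1 and 115 CPM and Igtp at 62.0 and 132 CPM. Of the sensors and effectors, Zbp1, a sensor of nucleic acid in the Z form, was at 47.6 and 205 CPM, Xaf1 at 46.5 and 145 CPM and Isg15, a ubiquitin-like protein, at 132 and 302 CPM. Irf7, a transcription factor of the interferon response, was at 45.6 and 112 CPM. Cxcl9, a chemokine gene, was the list's lower member, at 183 and 59.5 CPM, but at 53.4 and 37.1 CPM without the mixed barcodes. Irf1, at 811 and 636 CPM, and Cxcl10, at 151 and 119.8 CPM, were less than 1.5-fold apart, and Cxcl10 was at 76.4 and 95.6 CPM without the mixed barcodes.

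Ifng, the gene of interferon gamma, was at 0 CPM in lymphatic cells of both libraries. T or NK cells numbered 4 in the conventional and 106 among the No-Touch cells, so their Ifng levels were not compared. Without the mixed barcodes 24 of 31 interferon genes and 22 of 24 antigen presentation genes were at least 1.5-fold higher, beside 10.4% of all genes. Against the conventional cells with Y-linked UMIs only the counts were 22 and 19, beside 10.8%, and against those with Xist only 22 and 16, beside 13.9%. The interferon median was 0.90 against the conventional cells with Y-linked UMIs only, 0.96 against those with Xist only and 1.24 without the mixed barcodes. The antigen presentation median was 0.91, 0.77 and 1.15 in the same order. In blood endothelial cells 10 of 30 interferon genes and 8 of 25 antigen presentation genes were at least 1.5-fold higher, beside 12.6% of their genes, with medians of 0.42 and 0.35. The difference in size between the cell types was not tested. Fibroblasts and mural cells were not compared by list, but single genes were higher there too. B2m was at 1540 and 3156 CPM in fibroblasts and 1583 and 2558 CPM in mural cells. Irgm1 was at 18.9 and 108 CPM in fibroblasts and 25.7 and 90.7 CPM in mural cells. Cxcl9 was higher in No-Touch fibroblasts and lower in No-Touch mural cells. Set beside blood endothelium, 9 of 30 interferon genes were at least 2-fold lower in lymphatic cells of both libraries, beside 5.71% of 8617 genes. The list's median log2 ratio of lymphatic over blood endothelial cells was -0.89 for conventional and -0.32 for No-Touch cells.

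**Figure D3:**
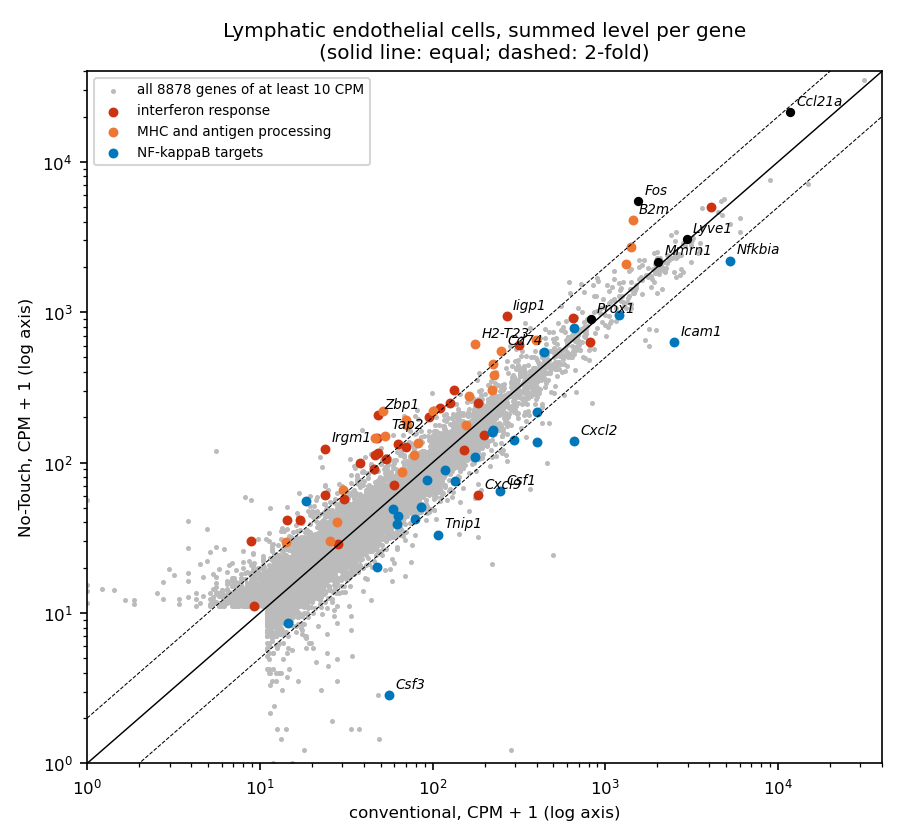
Summed level per gene in conventional (x axis) and No-Touch (y axis) lymphatic endothelial cells, CPM + 1 on log axes, for the 8878 genes of at least 10 CPM, with interferon, antigen presentation and NF-kappaB list genes in colour. Antigen presentation genes such as B2m (1438 and 4081 CPM) lie above the line of equal levels and NF-kappaB genes such as Icam1 (2504 and 635 CPM) below it.

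NF-kappaB is a transcription factor that inflammatory cytokines and stress release from its inhibitors. Of 26 measured targets, 16 were at least 1.5-fold lower and 1 higher in the No-Touch library, beside 6.85% and 9.54% of all genes, with a median log2 ratio of -0.75. Without the collagen limit 10 were lower. Of the feedback inhibitors, Nfkbia, which encodes the inhibitor IkappaB alpha, was at 5299.5 CPM (5233 to 5367) and 2203 CPM (2159 to 2247), 2.41-fold lower. Tnip1 was at 107 and 32.2 CPM and Tnfaip3, the deubiquitinase A20, at 221 and 164 CPM. The subunit genes Nfkb2 and Rela were at 84.9 and 49.8 and at 134 and 74.8 CPM. Of these, Nfkbia, Tnip1, Nfkb2 and Rela were at least 1.5-fold lower and Tnfaip3 was not. Of the adhesion genes, Icam1, which binds leukocyte integrins, was at 2504 CPM (2459 to 2550.5) and 635 CPM (612 to 659), 3.94-fold lower, and over single cells its median was 2011 and 365 CPM. Vcam1 was at 296 and 139.7 CPM.

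The secreted products on the list differed more widely. Cxcl2, a chemokine for neutrophils, was at 658 and 138 CPM, Csf1, the macrophage growth factor, at 246 and 63.9 CPM, and Csf3, the granulocyte growth factor, at 54.8 and 1.85 CPM. Csf3 is the only one of these near its detection limit, with 8 UMIs in all No-Touch cells. The chemokine genes Ccl2 (662 and 784 CPM), Ccl7 (440.0 and 543 CPM) and Cxcl1 (1196 and 952 CPM) were less than 1.5-fold apart. Il6 was the gene of the list that was higher, at 17.5 and 54.4 CPM. Neutrophils of the libraries held Il1b, an activator of NF-kappaB, at 4534 and 5069 CPM, and the lymphatic cells at 27.0 and 3.94 CPM. The neutrophils numbered 400 and 99 cells after the CD45-negative sort, and their part in the differences was not tested.

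Without the mixed barcodes 14 of 26 NF-kappaB genes were at least 1.5-fold lower, beside 7.39% of all genes, with 13 lower against the conventional cells with Y-linked UMIs only, beside 6.73%, and 18 against those with Xist only, beside 13.0%. The NF-kappaB median was -0.63 against the conventional cells with Y-linked UMIs only, -0.94 against those with Xist only and -0.68 without the mixed barcodes. Blood endothelial cells showed 12 of 25 genes at least 1.5-fold lower, beside 5.75% of theirs, and a median of -0.47. Other classes were not compared by list. Icam1 was at 1553 and 503 CPM in fibroblasts and 929 and 260 CPM in mural cells. Csf1 was at 345 and 180 CPM in fibroblasts and 244 and 109 CPM in mural cells. Other genes named as lower in No-Touch cells were the stress gene Gdf15 (833 and 249 CPM, and 67.3 and 67.1 CPM in blood endothelial cells), Gadd45b, a stress-induced regulator of kinase signalling (1784 and 592 CPM), Depp1, a target of FOXO factors (456 and 98.9 CPM), and Tnfaip2 (399 and 135 CPM). Neurl3 (181 and 30.8 CPM) and the water channel gene Aqp1 (174 and 57.5 CPM) were lower too, and both were higher in blood endothelial cells (1162 and 529.5, and 1742 and 1167 CPM). Without the mixed barcodes Neurl3 was at 102 and 13.1 CPM and Aqp1 at 63.7 and 38.0 CPM. Noct, a deadenylase-like gene, was at 143 and 53.8 CPM.

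Single members differed between libraries as the sums did. UMIs of antigen presentation genes made up a median of 0.559% of a conventional member's UMIs (lowest 0.0980%, highest 3.02%) and 1.31% of a No-Touch member's (0.315% to 3.71%). Of the No-Touch members 92.3% lay above the conventional median, and 62.1% above its upper decile. The conventional cells with Xist only and with Y-linked UMIs only had medians of 0.637% and 0.554%. For NF-kappaB genes the medians were 1.14% and 0.516%, and 5.37% of No-Touch members lay above the conventional median. Across cells the Spearman correlation of the antigen presentation and interferon shares was 0.52 over 329 conventional cells and 0.74 over 298 No-Touch cells, which share library, depth and the denominator of UMIs. These correlations describe cells of 1 library and carry no test.

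**Figure D4:**
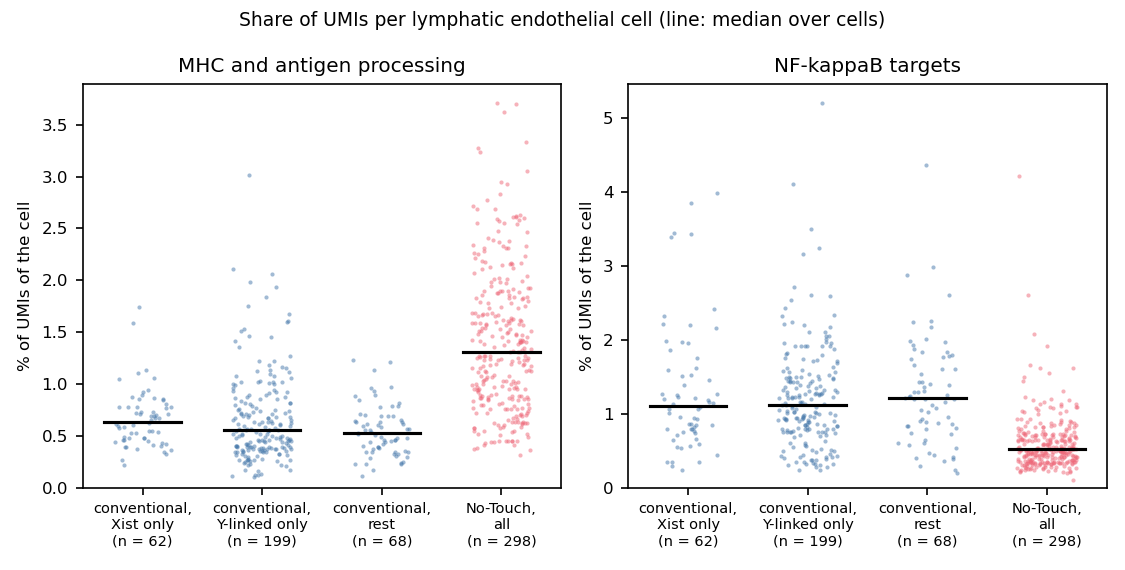
Share of UMIs (%) from the antigen presentation list (left) and the NF-kappaB list (right) in each lymphatic endothelial cell, for the conventional cells with Xist only, with Y-linked UMIs only and the rest, and for all No-Touch cells; each point is a cell and each line the median over cells. The No-Touch median of antigen presentation is 1.31%, above all conventional lines, and that of NF-kappaB 0.516%, below them; over all conventional cells the medians are 0.559% and 1.14%.

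Genes that recruit or guide leukocytes did not move in 1 direction. Of 15 chemokines and chemokine scavengers, 3 were higher and 6 lower in the No-Touch library, beside 9.54% and 6.85% of all genes, with a median log2 ratio of -0.33. The direction turned once the mixed barcodes were left out, with 4 of 13 higher and 2 lower (10.4% and 7.39% of all genes) and a median of 0.29. Ccl21a had a ratio of 1.82 and Ackr3, a scavenger of CXCL12 and adrenomedullin, of 1.60 (218 and 349 CPM). Over single members the median Ccl21a level was 10791 and 20169 CPM, with a lower decile of 184 and 2412 CPM. Against the conventional cells with Y-linked UMIs only the log2 ratio of Ccl21a was 0.77, and against those with Xist only 0.99. Ccl21a was thus higher in No-Touch cells against either subset. Cxcl12, a chemokine of stroma and endothelium, was at 145 and 182 CPM. Of 10 genes of lymphocyte exit and survival 1 was higher, Il7, and 1 lower, Csf1. Leaving out the mixed barcodes gave 3 of 10 higher and 3 lower. Spns2, the transporter that releases sphingosine 1-phosphate into lymph, was at 150.3 and 177 CPM. Il7, the survival factor of lymphocytes, was at 72.9 and 161 CPM in lymphatic and 2.05 and 4.39 CPM in blood endothelial cells. Of 13 leukocyte adhesion genes 4 were higher and 4 lower, the last holding Icam1, Vcam1 and Selp, and the first Cd47, a signal that restrains phagocytes (449 and 774 CPM). Of 7 hyaluronan and scavenger receptor genes 1 was higher, Cd44, a second hyaluronan receptor (36.9 and 75.8 CPM), and 2 were lower. Lyve1, which the rule used, was at 2963 and 3073 CPM, and Stab1, a scavenger receptor, at 564 and 397 CPM.

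Immediate early genes, which stimulation and tissue digestion switch on within minutes, were partly higher in the No-Touch members. The list of these genes and of heat shock genes had 21 measured members, of which 7 were at least 1.5-fold higher and 1, Ier3, lower, beside 9.54% and 6.85% of all genes (median log2 ratio 0.44, and 0.05 in blood endothelial cells). Fos was at 1548 and 5489 CPM, and at 859 and 2984 CPM in blood endothelial cells, while Jun (4688 and 5487 CPM) and Egr1 (1638 and 2050.5 CPM) were less than 1.5-fold apart. The heat shock gene Hspa1a was at 897 and 1697 CPM. Ier3, also a target of NF-kappaB, was at 1786 and 771 CPM. The part of digestion in these differences was not tested.

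Postn, Sfrp2 and Has1, also named as higher in No-Touch cells, were at higher levels in fibroblasts of the same libraries. Postn (67.6 and 203 CPM in lymphatic cells) and Sfrp2 (97.9 and 290.3 CPM) are matrix and Wnt-binding genes that fibroblasts held at 705 and 1490.0 and at 903 and 2324 CPM. Has1, a hyaluronan synthase, was at 38.0 and 164 CPM in lymphatic cells and at 245 and 698 CPM in fibroblasts. Fibroblast markers were higher in the No-Touch members too, as given above, and their part in these values was not tested.

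The remaining lists are given by their counts at 1.5-fold, to be read beside 9.54% higher and 6.85% lower among all genes. Of 13 basement membrane genes 0 were higher and 3 lower, the last including Col4a1 (803 and 484 CPM), a chain of the collagen of that membrane. Leaving out the mixed barcodes gave 1 of 12 higher and 1 lower, beside 10.4% and 7.39% of all genes. Of 17 flow response genes 1 was higher, Ccn1 (618 and 1589 CPM), a target of YAP, and 1 lower, Klf2 (2819 and 1857 CPM), the factor that laminar flow induces. The flow counts were 3 higher and 0 lower without the mixed barcodes (10.4% and 7.39% of all genes). They were 2 and 0 against the conventional cells with Y-linked UMIs only (10.8% and 6.73%). Against those with Xist only they were 4 and 2 (13.9% and 13.0%). Of 8 Notch genes 1 was higher, of 16 unfolded protein response genes 1, and of 17 stress response genes 1 was higher and 3 lower. Of 16 hypoxia and glycolysis genes 1 was higher and 4 lower, among them Pfkfb3, an activator of glycolysis (191 and 106 CPM). Of 17 lipid genes 1 was higher and 6 lower (median log2 ratio -0.40). Among the lower was Scarb1, a lipoprotein receptor (20.1 and 3.71 CPM, and 7.46 and 4.28 CPM without the mixed barcodes). The 14 genes of the transition from endothelial to mesenchymal state held 2 that were higher and 2 that were lower. Genes of cycling cells were low in both libraries. Mki67 was at 5.89 and 3.71 CPM and Top2a at 10.47 and 12.3 CPM, and of 8 measured proliferation genes 0 were higher and 3 lower. In blood endothelial cells 9 of 13 were higher and 0 lower, beside 12.6% and 5.75% of their genes.

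Members varied among themselves in Lyve1 and Ccl21a. Without the mixed barcodes, 15 of 266 conventional members (5.64%, 3.19 to 9.13) and 36 of 270 No-Touch members (13.3%, 9.52 to 17.98) held under 500 CPM of Lyve1. The limit was set after the values were seen, and 9 and 22 members lay between 250 and 750 CPM. Low members were of like depth, with medians of 10691 and 11815 UMIs against 10902 and 12204. Of 3154 genes, 15 (0.476%) were at least 2-fold higher in low members of both libraries and 31 (0.983%) lower.

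Genes higher in the members low in Lyve1 included Foxp2 (35.4 CPM in the others and 156 CPM in low members of the conventional library, 75.4 and 236 CPM in the No-Touch library). Fabp4, a fatty acid carrier, went from 45.2 to 521 and from 39.2 to 111 CPM, and Plat, the tissue plasminogen activator, from 47.2 to 258 and from 56.2 to 131 CPM. Plvap, a gene of blood endothelium, went from 78.0 to 306 and from 98.0 to 310.3 CPM, and its part in the other differences was not tested. Piezo2 was among the lower genes. The valve genes Foxc2 and Cldn11 were higher by value in both libraries, from 57.7 to 95.9 and from 49.0 to 156 CPM for Foxc2 and from 27.2 to 53.9 and from 17.0 to 81.5 CPM for Cldn11. In the conventional low members these rest on 16 and 9 UMIs.

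Members under 1000 CPM of Ccl21a, a limit also set after the values were seen, numbered 31 (11.7%, 8.06 to 16.1) and 16 (5.93%, 3.42 to 9.45). Between 500 and 2000 CPM lay 20 conventional members and 1 No-Touch member, so the low group was set apart more clearly in the No-Touch library. Of the low members 5 and 11 were also low in Lyve1. Of 3130 genes 21 (0.671%) were at least 2-fold higher and 30 (0.958%) lower in low members of both libraries. Fabp4, Parm1, Plat and Foxp2 were again among the higher genes, with Adm, which encodes adrenomedullin, at 34.5 and 108 and at 32.7 and 274 CPM. Ackr2 was lower, at 121 and 25.6 and at 167 and 29.8 CPM. Values of valve genes differed between the libraries. Foxc2 was at 51.5 CPM in the other and 244 CPM in the low members of the No-Touch library and at 60.0 and 56.9 CPM in the conventional library, and Cldn11 at 16.05 and 174 against 26.9 and 42.6 CPM. The difference between the libraries was not tested, and the No-Touch low members are 16 cells.

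**Figure D5:**
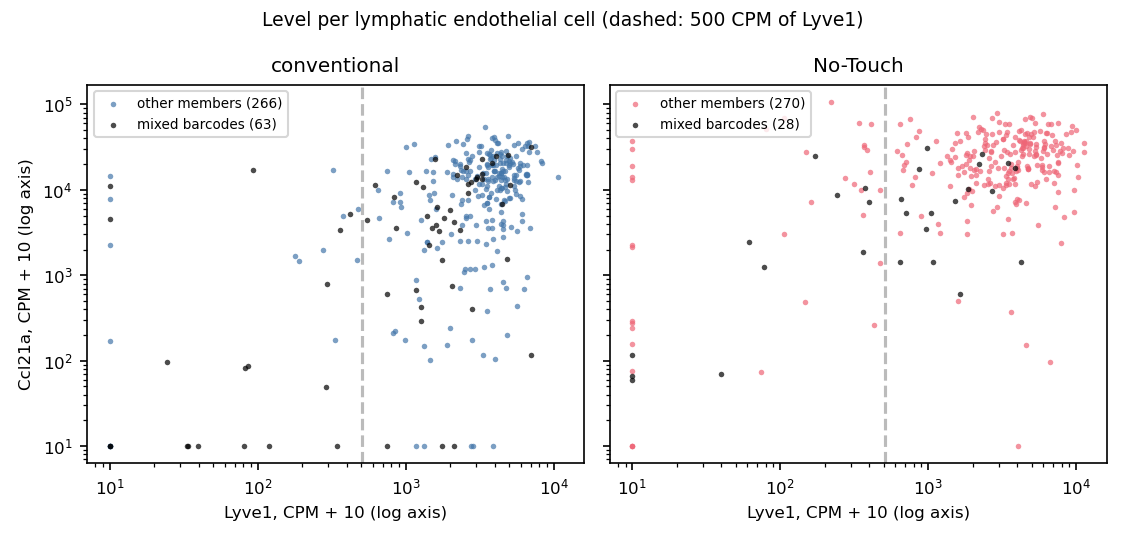
Level of Lyve1 (x axis) against Ccl21a (y axis) in each lymphatic endothelial cell of the conventional and No-Touch libraries, CPM + 10 on log axes; points are cells, mixed barcodes have their own colour and the dashed line marks 500 CPM of Lyve1. Members low in both genes lie at the lower left, 5 unmixed conventional cells and 11 unmixed No-Touch cells.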

How the data were processed

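The deposited matrices hold UMI counts per gene and cell barcode for 1 conventional and 1 No-Touch library. The counts were made by the authors with Cell Ranger 3.1.0 on mm10, per the submitters' processing notes, while the file headers name Cell Ranger 6.0.0. The kit version is given as v2 or v3, per the labels, and no source used here says whether strand was used in counting, so overlapping genes cannot be told apart. The libraries held 200851272 and 373319906 UMIs in 11899 and 12450 barcodes, and the members 4584182 and 4316016. UMIs were summed over the cells of a class and divided by their total, and log2 ratios used CPM + 1. Genes were counted at 2-fold from 50 CPM in either library, and lists at 1.5-fold from 10 CPM. Intervals are 95% exact (Garwood for counts, Clopper-Pearson for shares). A single library a group allows no test, so no p-value is given.

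The members and lists were chosen with earlier results of these data known. Genes were named from the lists (up to 4 of at least 20 CPM with the largest ratio in lists not of lymphatic biology), from the 15 highest and 10 lowest ratios to blood endothelial cells, and from the 12 highest and 12 lowest ratios between libraries at 100 CPM or more, without mitochondrial, ribosomal, sex-linked and predicted genes and genes of other cell classes. Genes named for the members low in Lyve1 or Ccl21a, like others outside these rules, were picked with their values in view. Doublets were scored with Scrublet in scanpy 1.11.5. Its automatic limit marked 2.30% and 0% of cells and so did not work in the No-Touch library, and none were removed. Leaving out the highest scores, and the mixed barcodes, were alternatives, as were other marker, collagen and mitochondrial limits, thinning, other scaling, filters and pseudocounts. Python 3.11.15, pandas 2.3.3, scipy 1.17.1, edgeR 4.0.16 (TMM factors) and DESeq2 1.42.0 (median-of-ratios factors) were used. The ratio and count code was tested on simulated data. Gene symbols are those of the files, and promoters are RefSeq entries matched by symbol.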

Additional observations from a re-analysis of the deposited data

How the results depend on the processing

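No paired analysis was possible because the labels give each group 1 library and no replicate numbers. Over 16 settings the median log2 ratio lay between 0.82 and 1.24 for the interferon list (19 to 24 genes higher, 0 to 2 lower), between 0.72 and 1.15 for antigen presentation (13 to 22 higher, 0 lower) and between -0.94 and -0.44 for NF-kappaB (10 to 18 lower, 1 to 5 higher). The lowest NF-kappaB count, 10, came without the collagen limit. Of 375 alternative values of the 25 list medians, 87 moved by 0.1 or more and 53, in 15 lists, had the other sign than the median reported. None of these was among the 3 lists with a median beyond 1.5-fold (interferon, antigen presentation and NF-kappaB). They include the chemokine list, at 0.29 without the mixed barcodes and 0.39 without the collagen limit, and the hyaluronan and scavenger list, at 0.33 against the conventional cells with Xist only. Of 1695 alternative values of the 113 genes with a ratio in the text, 52, in 24 genes, had the other sign. Of these genes 1 had differed by 1.5-fold or more, Ackr1, whose log2 ratio was 0.25 against the conventional cells with Y-linked UMIs only; the cause was not tested. Genes at least 2-fold higher numbered 181 without the collagen limit, 668 with no filter on low values and 47 with a filter at 100 CPM. Genes at least 2-fold lower numbered 366 with no filter on low values and 145 against the conventional cells with Xist only. The filters change how many genes are counted (17307 and 1900). Median-of-ratios scaling gave 73 higher and 77 lower and moved the median of all genes to -0.12. With at least 2 markers, 47 conventional and 17 No-Touch barcodes were added, and the conventional share of lymphatic cells was 3.595%. Without the mixed barcodes 266 conventional (2.56%) and 270 No-Touch members were left. Without the collagen limit members numbered 350 of 10458 conventional and 351 of 11525 No-Touch cells, the last being 3.05%. With cells thinned before the rule the shares were 2.75% and 2.16%. The alternatives without mixed barcodes and by sex-linked genes were chosen after seeing the data. Each group is 1 library, so depth sets the counting intervals but not the spread between grafts, which was not measured.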

Other observations

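Some genes of the circadian clock differed between the libraries in lymphatic and other cells. Of 13 measured clock genes 4 were at least 1.5-fold higher and 2 lower in No-Touch lymphatic cells, beside 9.54% and 6.85% of all genes. The counts were 5 and 4 against the conventional cells with Y-linked UMIs only (10.8% and 6.73%) and 2 and 1 against those with Xist only (13.9% and 13.0%). Dbp, an output gene of the clock, was at 4.58 CPM (2.84 to 7.003) and 26.4 CPM (21.8 to 31.7) in lymphatic cells, at 4.87 and 24.5 CPM in blood endothelial cells and at 5.85 and 30.5 CPM in fibroblasts. Nr1d1, a repressor in the clock loop, was at 49.7 and 103 CPM in lymphatic cells, at 62.6 and 121 CPM in blood endothelial cells and at 24.3 and 149 CPM in fibroblasts. Arntl, an activator that Nr1d1 represses, was lower in No-Touch cells, at 30.1 and 12.7 CPM in lymphatic cells and 37.7 and 23.9 CPM in blood endothelial cells. Cry1, a repressor of the loop, was at 44.9 and 28.0 CPM in lymphatic cells. The times of day at which grafts were taken are not given in the sources used here.

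Of 14 genes of clotting and clot removal 3 were higher and 3 lower in No-Touch lymphatic cells, beside the same shares of all genes. F8, which encodes coagulation factor VIII, was at 15.5 and 45.2 CPM in lymphatic cells and at 27.3 and 23.2 CPM in blood endothelial cells. F3, the tissue factor that starts clotting, was at 6.98 and 18.8 CPM. Gt(ROSA)26Sor, a non-coding gene at a locus used for transgenes, was at 494 CPM in the conventional and 23.4 CPM in the No-Touch lymphatic cells. It was at 144 CPM in the conventional members with Xist only and at 574 CPM in those with Y-linked UMIs only. Blood endothelial cells (303 and 25.2 CPM) and fibroblasts (211 and 13.2 CPM) showed the same direction.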
